A study of Mus musculus with 12 samples.

Results

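The proteasome is the cell's main machine for degrading ubiquitin-tagged proteins. Its barrel-shaped 20S core is made of stacked rings of alpha subunits, which gate the entrance, and beta subunits, some of which cut the substrate. The 19S cap binds tagged proteins, removes the ubiquitin, and unfolds and feeds them into the core with a ring of ATPases. At synapses, proteasomes are known to turn over scaffold and receptor proteins when activity changes. The genes described here are 31 proteasome subunit genes, 14 of the core and 17 of the cap, taken by symbol from a table of 21492 genes. All 31 matched a single row and all passed the filter on low values in every comparison. They lie on 14 chromosomes.

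RNA was measured in striatal synaptosomes (input), which are sealed nerve terminals with attached postsynaptic membrane, and in the polyribosomes isolated from them (polysome), which are messages loaded with several ribosomes. The mice were male, of strain C57BL/6J and at postnatal day 70, and were either wild type (WT) or carried a Shank3 transgene (TG), with 3 libraries in each of the 4 groups. How the transgene is driven, and whether the libraries of a group come from separate mice, is not given in the sources used here. The p-values therefore reflect library-to-library spread alone, part of which could be technical. Values are the authors' normalized estimated counts per gene, called normalized counts below.

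Shank3, a scaffold gene of excitatory synapses, had 2121 to 5858 normalized counts in WT input and 5456 to 17501 in TG input, and was higher in TG in each same-numbered pair. All 12 fixed markers of medium spiny neurons, the principal striatal neurons, had at least 1638 normalized counts in every library. Estimated depth lay between 60.8 and 85.2 M reads (M, mega) for input and between 77.0 and 104 M for polysome libraries. At that estimated depth the least abundant proteasome gene rested on about 430 reads in a library. If the estimate holds, counting error would be small beside the spread between libraries, but this was not tested. Mitochondrial ribosomal RNA took 39.1% to 46.8% of the input signal and 23.1% to 34.0% of the polysome signal. The summed level of 6 astrocyte markers was 109100 to 115400 normalized counts in input, against 57860 to 84290 in polysome libraries, and 2 of the 6 passed as lower in polysome in WT and in TG. Of 7 microglial markers, 0 passed in WT and 2 passed as higher in polysome in TG, with summed levels from 25150 to 38790 (input) and from 28770 to 41480 (polysome). The summed level of 5 choroid plexus and ependymal markers varied most, from 572 to 33790 over the 12 libraries, and none of them passed. The summed level of 5 nuclear noncoding RNAs was 5709 to 17570 in input, without overlap above the 2574 to 5390 of polysome libraries, and 1 of them passed as lower in TG. In both genotypes 1 of 11 synaptic markers passed as higher in polysome and 1 as lower, 1 of 6 cortical neuron markers as lower and 1 of 6 oligodendrocyte markers as higher, and in TG 1 of 6 endothelial and mural markers as higher. Summed, the 6 oligodendrocyte markers had 228500 to 410800 normalized counts in input and 208700 to 350000 in polysome libraries. The 12 medium spiny neuron markers had 208200 to 481400 and 207400 to 523400, so RNA of oligodendrocytes was plentiful in both fractions. No fixed marker was at 0 in all libraries. The part of cell content in the results below was not tested.

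Levels per length, given as normalized counts per kb of exonic sequence, spanned a wide range among genes whose proteins sit side by side in the same particle. In WT input the highest was Psmc3, an ATPase of the cap, with 2809 ± 561 per kb (mean ± SD, n = 3). Psmc1, another ATPase, followed with 2461 ± 276, a difference within their spreads. The lowest was the lid subunit Psmd11, with 172 ± 47.8 per kb, below the ATPase Psmc2 at 384 ± 94.3 and the lid subunit Psmd7 at 414 ± 150, which do not differ from each other beyond their spread. The catalytic subunits had 2216 ± 325 (Psmb6), 1982 ± 372 (Psmb5) and 1034 ± 126 (Psmb7) per kb. In WT polysome libraries the order differed, and Psmb5 and Psmb4 stood highest, with 4042 ± 829 and 3865 ± 563 per kb. Exonic length counts all annotated isoforms, so a gene with long rare exons, such as Psmd11 with 6.38 kb, is set low by this scale. Of the 31 genes, 8 share at least 10% of their 31-base sequences with other genes, so their single values are uncertain. They are Psmb5 (71.7%), Psma5 (58.7%), Psmc1 (32.2%), Psmd2 (31.6%), Psmb3 (21.7%), Psma3 (19.5%), Psma4 (18.2%) and Psmd11 (13.1%).

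The first comparison asked which proteasome messages were higher or lower on polyribosomes than in synaptosomal input, in WT. In the beta ring 5 of 7 genes rose, and in the alpha ring 1 of 7. Of the 14 core genes together, 6 rose and none fell: Psma2, Psmb1, Psmb3, Psmb4, Psmb5 and Psmb7, with a median log2 difference over the core of 0.59. Of the 17 cap genes, none rose and 1 fell, the large cap scaffold Psmd1, with a median of 0.0056. Over the 31 genes the median was 0.30, beside 0.026 over the 16962 genes tested. The 6 rises are 19.4% of the 31 genes, where 5.37% of all genes passed as higher, and 8.59% passed as lower (limma on log2(value + 1), adjusted p under 0.05 over all genes). This fit was unpaired, and calls with the library number as a block are given further below. The values are normalized between libraries, so a rise is relative to other genes and does not give the share of a message on polyribosomes.

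In TG, 8 of the 14 core genes rose and none fell, with a median log2 difference of 0.77. The genes were those 6 of WT together with the alpha subunit Psma7 and the catalytic subunit Psmb6. Of the 17 cap genes, 1 rose, the lid subunit Psmd8, and 1 fell, again Psmd1, with a median of 0.14. The 9 rises are 29.0% of the 31 genes, where 8.19% of all genes passed as higher and 9.86% as lower. The median over the 31 was 0.34, beside 0.030 over all genes tested. The TG libraries are separate from those of WT, but 1 fit with a shared estimate of the spread gave both comparisons. Same-numbered WT and TG libraries also deviated together, so TG is not an independent repeat of WT. Fitted on 1 genotype alone, 7 proteasome genes passed as higher in WT and 7 in TG, and 0 as lower, Psmd1 included. There 742 and 627 of all genes passed as higher and 1252 and 1073 as lower. Psmb6 and Psma7 just missed the threshold in WT (log2 differences 0.54 and 0.73, adjusted p = 0.0535 and 0.0691, limma). The cap lid gene Psmd11 missed it as narrowly as Psma7 in WT (0.69, adjusted p = 0.0693, limma). Psma5 just missed it in TG (0.56, adjusted p = 0.0621, limma), where Psmd11 had 0.63 (adjusted p = 0.0831).

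Psmb4, a structural beta subunit, had the largest rise in WT. It lies on chromosome 3 of GRCm38 at 94884093 to 94886961. In WT it had 4021, 3625 and 2849 normalized counts in input libraries 1, 2 and 3, and 7347, 8723 and 6551 in polysome libraries. In TG it had 5262, 2922 and 2373 in input and 8763, 8404 and 7950 in polysome libraries. Each polysome library was above each input library of its genotype, and the TG input library of number 1 stood well above the other TG input libraries. The log2 difference was 1.11 ± 0.25 (SE) in WT (adjusted p = 0.0150, limma) and 1.33 ± 0.25 in TG (adjusted p = 0.00613), or 2.16-fold and 2.52-fold.

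Psmb5 encodes the subunit with chymotrypsin-like activity, the target of the drug bortezomib, on chromosome 14 at 54614119 to 54618022. Its normalized counts in WT were 1955, 1994 and 1397 in input libraries and 3742, 4319 and 2840 in polysome libraries. In TG they were 2613, 1253 and 968 in input and 4471, 4016 and 3873 in polysome libraries. The fractions did not overlap within a genotype. The log2 difference was 1.02 ± 0.30 in WT (adjusted p = 0.0411, limma) and 1.48 ± 0.30 in TG (adjusted p = 0.00833), the largest rise in TG. Psmb5 shares 71.7% of its 31-base sequences with other genes, most of them with the processed pseudogene Gm3375, so its single value is uncertain.

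The other catalytic subunits had smaller differences, though these were not tested against that of Psmb5. Psmb7, with trypsin-like activity, lies on chromosome 2 at 38588036 to 38644087. It had 3946, 3578 and 3089 normalized counts in WT input and 5544, 6433 and 5071 in WT polysome libraries, against 4543, 3193 and 2761 in TG input and 6580, 6251 and 6012 in TG polysome libraries. Its log2 difference was 0.68 ± 0.19 in WT (adjusted p = 0.0308, limma) and 0.88 ± 0.19 in TG (adjusted p = 0.00992). Psmb6, with caspase-like activity, lies on chromosome 11 at 70525367 to 70527858. It had 3975, 4825 and 3645 in WT input, 5578, 6640 and 5839 in WT polysome, 5005, 4016 and 3286 in TG input, and 6618, 6801 and 6431 in TG polysome libraries. Its difference was 0.54 ± 0.17 in WT, which did not pass, and 0.71 ± 0.17 in TG (adjusted p = 0.0161, limma). For all 3 catalytic genes every polysome library was above every input library of its genotype.

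The remaining beta subunits that rose are structural. Psmb3 (chromosome 11, 97703399 to 97713500) had 2445, 2617 and 1847 normalized counts in WT input and 3959, 4563 and 3610 in WT polysome libraries. In TG it had 3130, 2335 and 1724 in input and 4627, 4367 and 4237 in polysome libraries, giving log2 differences of 0.82 ± 0.21 in WT and 0.92 ± 0.21 in TG (adjusted p = 0.0241 and 0.0126, limma). Psmb1 (chromosome 17, 15475021 to 15499751) had 4913, 5287 and 4353 in WT input and 7021, 8718 and 6883 in WT polysome libraries, then 5930, 4571 and 3940 in TG input and 8517, 8638 and 8068 in TG polysome libraries. Its differences were 0.63 ± 0.17 and 0.82 ± 0.17 (adjusted p = 0.0300 and 0.00888, limma). Neither gene's fractions overlapped within a genotype. Psmb2, the other beta subunit, did not pass in WT (0.30 ± 0.17) or in TG (0.24 ± 0.17), although it was higher in polysome in all 6 numbered pairs.

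In the alpha ring Psma2 (chromosome 13, 14613240 to 14674236) passed in both genotypes. It had 3761, 3819 and 3102 normalized counts in WT input and 5944, 6708 and 5921 in WT polysome libraries. In TG it had 4594, 3219 and 2869 in input and 7522, 7109 and 6692 in polysome libraries. The differences were 0.80 ± 0.18 in WT and 1.03 ± 0.18 in TG (adjusted p = 0.0140 and 0.00421, limma). Psma7 (chromosome 2, 180036374 to 180042433) had 3141, 3114 and 2324 in WT input, 4530, 5286 and 4326 in WT polysome, 4196, 2523 and 1800 in TG input, and 5483, 5377 and 5181 in TG polysome libraries. Its TG input libraries were the most spread of these, and the difference there was 1.00 ± 0.25 (adjusted p = 0.0180, limma). The other alpha subunits ranged from -0.0050 (Psma3) to 0.47 (Psma5) in WT and from 0.16 (Psma1) to 0.56 (Psma5) in TG, and none passed. Psma5 shares 58.7% of its sequence with other genes.

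**Figure D1:**
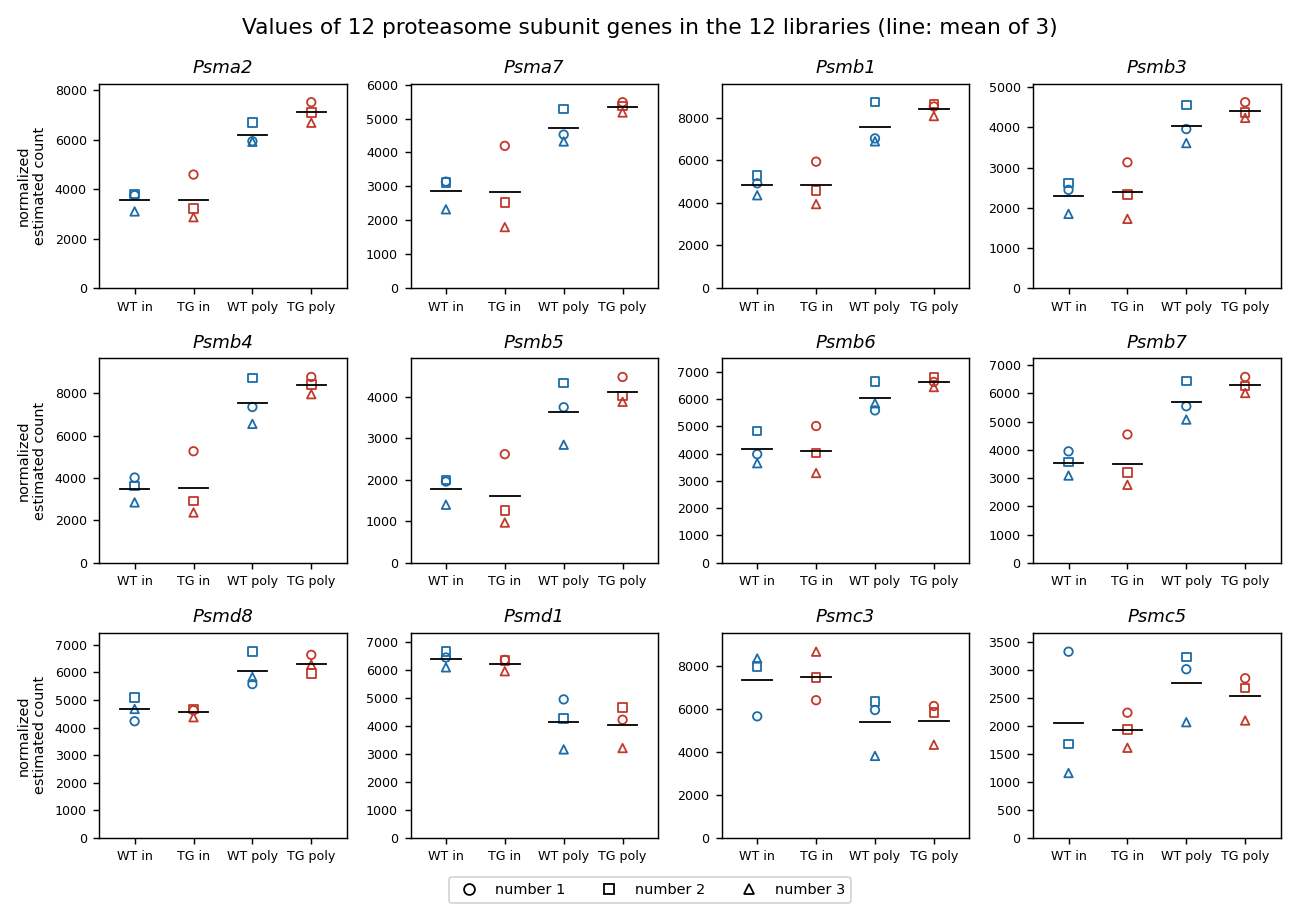
Normalized estimated counts of 12 proteasome subunit genes in each of the 12 libraries. The x axis gives the group, the marker shape the library number, blue is WT, red is TG, and the line is the mean of 3. Polysome values lie above input values in the 8 core genes and Psmd8, and below them in Psmd1, while Psmc3 and Psmc5 vary between libraries.

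Among cap genes, Psmd1, which encodes a large non-ATPase scaffold of the cap base, lies on chromosome 1 at 86064387 to 86139151. It had 6458, 6667 and 6105 normalized counts in WT input and 4956, 4266 and 3162 in WT polysome libraries. In TG it had 6374, 6347 and 5966 in input and 4226, 4665 and 3211 in polysome libraries. All polysome values were below all input values, and the input libraries lay close together. The log2 difference was -0.66 ± 0.18 in WT and -0.64 ± 0.18 in TG (adjusted p = 0.0339 and 0.0313, limma). Psmd2, the other large base subunit, did not pass (-0.13 ± 0.21 and -0.15 ± 0.21), nor did the ubiquitin receptor Psmd4 (-0.071 ± 0.19 and 0.086 ± 0.19).

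Psmd8, a lid subunit (chromosome 7, 29174188 to 29180701), had 4227, 5088 and 4674 normalized counts in WT input and 5577, 6756 and 5836 in WT polysome libraries. In TG it had 4627, 4675 and 4373 in input and 6641, 5958 and 6283 in polysome libraries. The fractions did not overlap, and the difference passed in TG (0.46 ± 0.14, adjusted p = 0.0341, limma) but not in WT (0.38 ± 0.14, adjusted p = 0.0829). Whether the genotypes differ in this was tested by the interaction below, which it did not pass. The other 7 lid genes, among them the deubiquitinase Psmd14 (-0.20 ± 0.25 in WT), did not pass in either genotype. They ranged from -0.36 (Psmd13) to 0.69 (Psmd11) in WT. The 6 ATPase genes did not pass either, and ranged from -0.46 (Psmc3) to 0.55 (Psmc5) in WT and from -0.47 (Psmc3) to 0.43 (Psmc4) in TG.

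Groups did not overlap, with polysome above input, in 10 of the 31 genes in WT and 12 in TG, of which 8 and 10 were core genes. Over all genes tested the same held for 17.7% in WT and 17.6% in TG. Polysome lay below input without overlap in Psmd1 in WT and in Psmd1 and Psmc3 in TG, where 18.5% and 18.0% of all genes did so. Each numbered polysome library was then taken with the input library of its number and genotype. By this pairing 11 of the 14 core genes were higher in polysome in all 6 pairs, as were 5 of the 17 cap genes. The share of all genes higher in all 6 pairs was not computed, so these counts have no background to be read against. The library numbers were taken to pair the libraries here, although no label explains them. With the replicate block, 11 genes rose and 1 fell in WT, where 13.9% of all genes passed as higher and 15.9% as lower. The 11 were Psma2, Psma5, Psma7, Psmb1, Psmb3, Psmb4, Psmb5, Psmb6, Psmb7, Psmd8 and Psmd11. In TG the block gave 13 rises, those 11 together with Psma6 and the ATPase Psmc4, and 1 fall, where 16.7% and 16.6% of all genes passed as higher and lower. Psmd1 was the gene that fell in both genotypes.

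**Figure D2:**
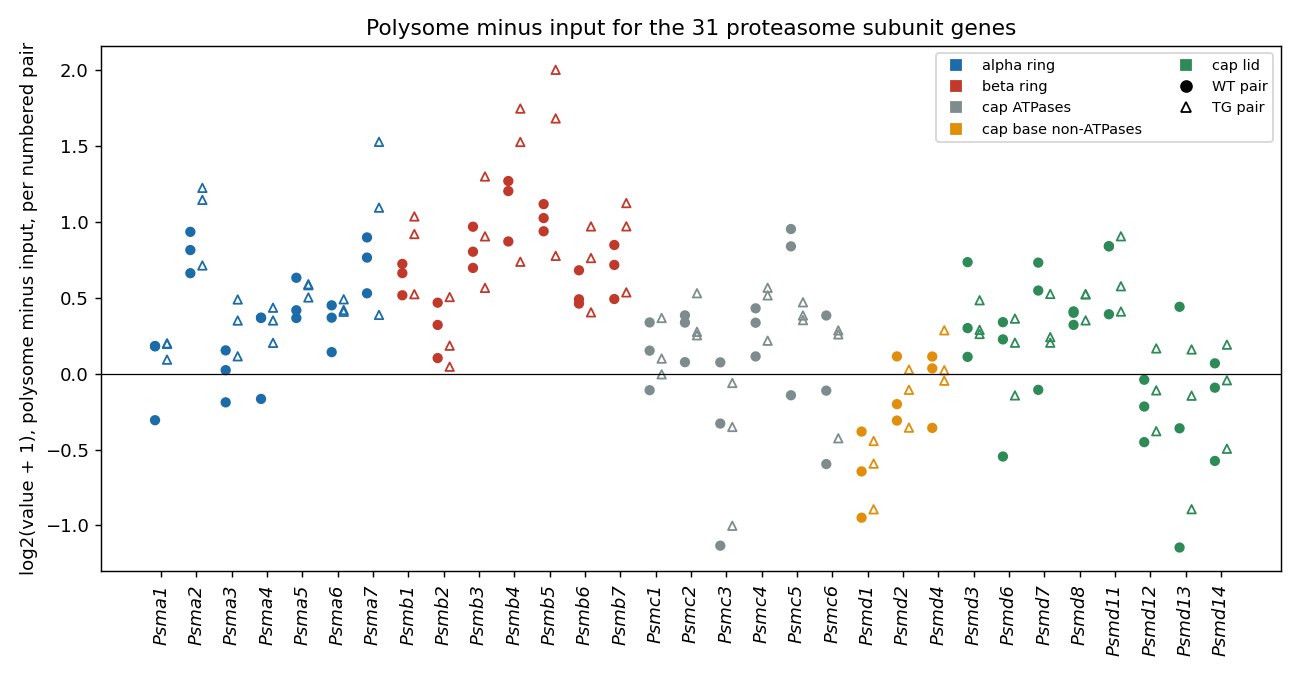
Polysome minus input on the log2(value + 1) scale for each of the 31 genes (x axis, grouped by place in the particle), with 1 point per numbered pair, filled circles for WT and open triangles for TG. Core genes lie mostly above 0, with 11 of 14 above it in all 6 pairs, and Psmd1 lies below 0 in all 6. The share of all genes above 0 in all 6 pairs was not computed.

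The core and the cap differed most in the libraries of number 3. Median differences of the core in the WT pairs 1, 2 and 3 were 0.49, 0.68 and 0.67, and the TG pairs gave 0.51, 0.83 and 1.00. For the cap the WT pairs gave 0.11, 0.22 and -0.31, the TG pairs 0.20, 0.28 and -0.047, so that in number 3 the cap median ran the other way. Psmc3 was among the genes lowest in number 3, with 0.074, -0.33 and -1.13 in WT, and its TG pair of number 3 was likewise the lowest of that genotype. Psmd13, a lid subunit, had 0.44, -0.36 and -1.14 in WT. The summed level of core genes divided by that of cap genes, a ratio within a library that does not depend on scaling between libraries, was 0.682, 0.712 and 0.657 in WT input and 0.919, 1.04 and 1.20 in WT polysome libraries. In TG it was 0.805, 0.674 and 0.582 in input and 1.08, 1.04 and 1.30 in polysome libraries. All polysome libraries were above all input libraries in this ratio, and number 3 of polysome was the highest in both genotypes.

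Core genes have shorter coding sequences than cap genes, 603 to 831 bases against 930 to 2859, with Psmd1 the longest. Across all tested genes with a coding sequence the polysome-to-input difference fell with coding length (Spearman's rho -0.55 in WT and -0.55 in TG over 15059 genes). Over the 31 genes rho was -0.53 in WT and -0.57 in TG. Within the core it was 0.075 and 0.17 over 14 genes, and within the cap -0.19 and -0.18 over 17. These are descriptions across genes of the same libraries, and genes are not independent replicates. When a smooth trend on coding length was removed from each library, an alternative chosen after the data were examined, no proteasome gene passed in WT, where 1.80% of all genes passed as higher and 3.25% as lower. There Psmb4 came nearest (0.82 ± 0.23, adjusted p = 0.0565, limma). In TG 3 genes passed as higher, Psma2 (0.66 ± 0.15), Psmb4 (1.01 ± 0.23) and Psmb5 (1.16 ± 0.28), where 3.48% of all genes did and 4.49% passed as lower. The core median was then 0.27 in WT and 0.41 in TG and the cap median 0.096 and 0.074, and Psmd1 no longer passed (-0.32 ± 0.15 in WT). With a trend on exonic length removed, 6 genes passed as higher in WT and 8 in TG, where 4.29% and 6.69% of all genes did. None then passed as lower, Psmd1 included, where 6.02% and 7.25% of all genes did.

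**Figure D3:**
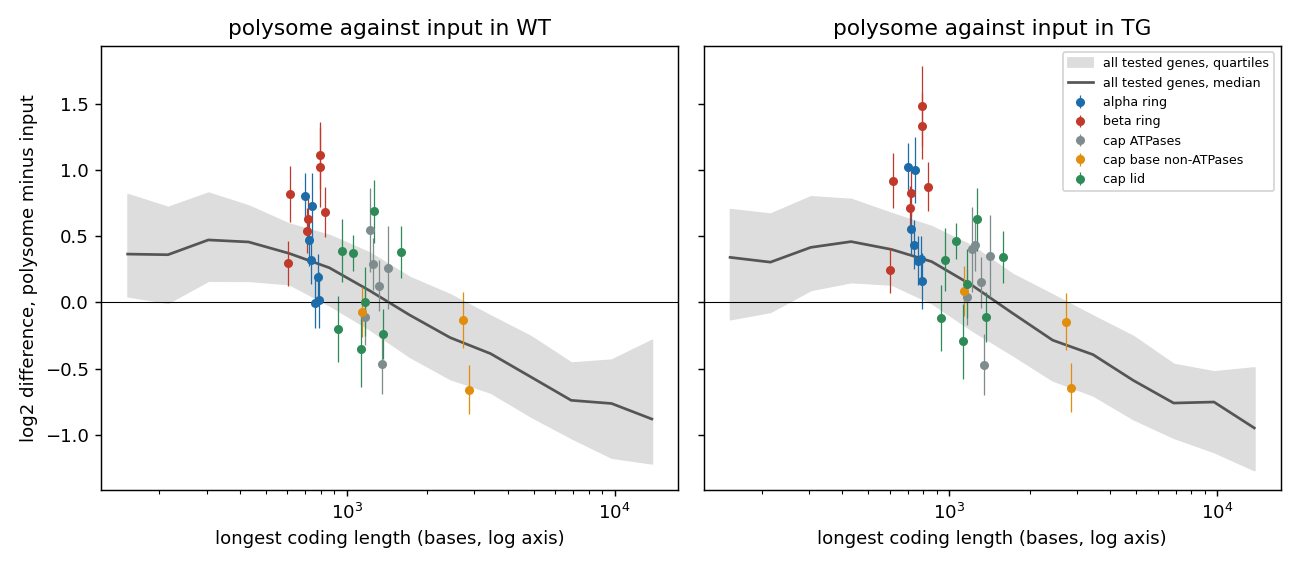
Log2 difference of polysome against input (y axis) by longest coding length in bases (log x axis), in WT and in TG. Points are the 31 genes with SE bars, coloured by place in the particle, and the grey line and band are the median and quartiles of all tested genes in bins of at least 20 genes. Core genes lie at 603 to 831 bases, where the median of all genes is above 0. With the coding length trend removed, Psmb4, Psmb5 and Psma2 passed as higher in TG, and none of the 31 genes passed in WT.

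The WT calls rest on few libraries. Without number 3 of WT input no proteasome gene passed, with 648 genes passing over the whole table against 2367 in all. The number of proteasome genes called in WT was 3 without number 2 of WT input, 3 without number 1 of WT polysome, 1 without its number 2 and 2 without its number 3. In that order 499, 486, 327 and 228 of all genes passed as higher, against 910 with all libraries. As lower, 876, 1211, 961 and 584 passed, against 1457. In TG it was 6 proteasome genes without number 2 or number 3 of TG input or number 1 of TG polysome, against 10 with all libraries. There 632, 513 and 528 of all genes passed as higher, against 1389, and 920, 827 and 830 as lower, against 1673.

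Promoter sequence was looked at for the genes with the largest rise and fall and for the catalytic genes, since subunit genes can be raised together by the transcription factor encoded by Nfe2l1, which binds antioxidant response elements. Windows of 300 bases, from 250 before to 50 after the start, were taken from RefSeq on GRCm38.p6, the plus or minus strand being that of the gene. The capitals mark TGACNNNGC, the core of that element, searched on both strands (GCNNNGTCA on the other), and CCAAT, searched with ATTGG.
Psmb4, chr3:94886909-94887208, minus strand: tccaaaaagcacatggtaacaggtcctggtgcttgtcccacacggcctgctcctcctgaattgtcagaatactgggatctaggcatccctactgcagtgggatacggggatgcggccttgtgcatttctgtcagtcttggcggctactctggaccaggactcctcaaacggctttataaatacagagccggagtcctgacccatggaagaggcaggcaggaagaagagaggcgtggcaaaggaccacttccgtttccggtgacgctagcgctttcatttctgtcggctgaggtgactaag
Psmd1, chr1:86064369-86064668, plus strand: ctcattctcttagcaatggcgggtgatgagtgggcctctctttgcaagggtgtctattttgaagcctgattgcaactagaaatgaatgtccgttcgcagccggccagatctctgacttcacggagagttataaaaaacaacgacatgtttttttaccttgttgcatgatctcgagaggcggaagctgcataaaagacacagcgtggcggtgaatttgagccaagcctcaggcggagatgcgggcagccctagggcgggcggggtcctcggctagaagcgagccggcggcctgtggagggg
Psmb5, chr14:54617946-54618245, minus strand: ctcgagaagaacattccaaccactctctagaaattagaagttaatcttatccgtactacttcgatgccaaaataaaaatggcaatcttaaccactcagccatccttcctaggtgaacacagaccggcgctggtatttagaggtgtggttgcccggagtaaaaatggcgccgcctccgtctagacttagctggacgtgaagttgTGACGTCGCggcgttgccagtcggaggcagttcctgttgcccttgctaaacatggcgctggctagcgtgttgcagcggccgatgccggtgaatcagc
Psmb6, chr11:70525107-70525406, plus strand: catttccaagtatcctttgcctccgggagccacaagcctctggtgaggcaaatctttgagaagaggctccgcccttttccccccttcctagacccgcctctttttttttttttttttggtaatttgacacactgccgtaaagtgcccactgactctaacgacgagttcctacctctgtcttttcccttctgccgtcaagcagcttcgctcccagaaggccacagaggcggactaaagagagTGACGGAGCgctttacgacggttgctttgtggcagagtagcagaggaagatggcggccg

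The windows of Psmb5 and Psmb6 each held 1 match to the element core, and those of Psmb4 and Psmd1 held no match to either motif. Of the 31 genes, 25 had a window (Psmb1, Psmb2, Psmb7, Psmc3, Psmd3 and Psmd7 had none in the table), and 4 of the 25 held the element core: Psmb5, Psmb6, Psmc6 and Psmd12. That is 14.8% of their 27 windows, beside 12.4% of 32851 windows of all genes. CCAAT stood in 10 of the 25, or 37% of their windows, beside 37.4% of all. The 2 motifs did not overlap in the sequences printed. A match in letters is a description, not a binding site.

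Other genes of the pathway moved in both directions. Of 41 listed, 40 had a row, Paaf1 was not analysed here, and 39 were tested. In WT 6 rose and 4 fell, or 15.4% and 10.3% of them, where 5.37% and 8.59% of all genes did. In TG 7 rose and 6 fell, or 17.9% and 15.4%, where 8.19% and 9.86% of all genes did. The medians were -0.11 in WT and -0.058 in TG. With the replicate block, 9 rose and 9 fell in WT, where 13.9% of all genes passed as higher and 15.9% as lower. In TG the block gave 10 rises and 9 falls, where 16.7% and 16.6% of all genes passed as higher and lower. Among 9 tested genes for assembly factors, 3 rose in WT and 5 in TG without the block. Pomp, which encodes the maturation factor of the core, had the lowest adjusted p of them. It had 2128, 1991 and 1855 normalized counts in WT input and 4405, 4191 and 4310 in WT polysome libraries, and 2458, 2089 and 1649 in TG input and 4366, 4342 and 4489 in TG polysome libraries. No polysome value overlapped an input value, and its log2 difference was 1.11 ± 0.15 in both genotypes (adjusted p = 0.00145 and 0.00152, limma). With the coding length trend removed, Pomp passed in both genotypes (0.68 ± 0.13 in each), Psmg3 in WT (0.77 ± 0.20), and Psmg2 (0.57 ± 0.13), Uba1 (-0.78 ± 0.22) and Nfe2l2 (-0.80 ± 0.22) in TG. No other rise or fall of a pathway gene given here passed then: Ecpas had -0.10 ± 0.15 in WT and -0.078 ± 0.15 in TG, Sem1 had 0.16 ± 0.16 in WT, and Psme4 in TG turned to 0.15 ± 0.15. Psmg3, a chaperone of core assembly, rose by 1.21 ± 0.24 in WT and 1.07 ± 0.24 in TG, and Psmg2, its relative, by 0.67 ± 0.15 and 0.89 ± 0.15. Psmg1 (0.53 ± 0.17) and the cap assembly factor Psmd9 (0.99 ± 0.24) rose in TG. Ecpas, which encodes a large proteasome adaptor, fell (-0.73 ± 0.19 in both).

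Uba1, the main ubiquitin-activating enzyme, fell. It had 20632, 22588 and 28974 normalized counts in WT input and 13349, 12297 and 7278 in WT polysome libraries, and its values were lower in polysome in all pairs (-1.17 ± 0.26 in WT and in TG, adjusted p = 0.0153 and 0.0121, limma). Nfe2l2, a transcription factor of the oxidative stress response, fell as well (-0.88 ± 0.25 and -0.93 ± 0.25), while Nfe2l1 did not pass (-0.30 ± 0.20 in WT). The small cap subunit Sem1 (0.63 ± 0.18) and the activator subunit Psme2 (0.74 ± 0.18) rose in WT. Psme2 shares 33.5% of its sequence, all of it with Psme2b. In TG the immunoproteasome subunit Psmb8 rose (1.66 ± 0.50, adjusted p = 0.0386, limma), and the activator Psme4 (-0.50 ± 0.15) and the cap deubiquitinase Usp14 (-0.66 ± 0.21) fell. Psmb8 was low, with 32.2 to 44.0 normalized counts in WT input and 20.9 to 122 in TG input, and the spread of the latter was wide. It lay at 74.7 to 186 in WT polysome and 151 to 179 in TG polysome libraries.

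The next comparisons asked which proteasome messages differ with the Shank3 transgene. None of the 31 passed in input, where 0% of 16341 genes did, and none had an unadjusted p under 0.05 (limma). Shank3 itself, although higher in TG in each same-numbered pair of input, was among the genes that did not pass. It did not pass on polyribosomes or in the interaction either. A lack of calls in these comparisons therefore does not show a lack of difference. The 31 log2 differences of TG against WT lay between -0.26 and 0.16, with a median of -0.023 beside -0.0086 over all genes. Psmb5 was lowest (-0.26 ± 0.35), with 0.42, -0.67 and -0.53 in numbers 1, 2 and 3. Psmb2 was highest (0.16 ± 0.16), with 2170, 2705 and 2487 normalized counts in WT input and 2393, 3129 and 2733 in TG input, higher in TG in each pair although the groups overlapped. Pairs differed in direction: 12 of 14 core genes were higher in TG in number 1, but 3 and 2 of them in numbers 2 and 3. Among cap genes, singled out after their values were seen, Psmc5 (-0.57), Psmd7 (-0.68) and Psmd11 (-0.57) were lower in TG in number 1 and higher in the other numbers.

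On polyribosomes none of the 31 passed either, where 0% of 16312 genes did, and none had an unadjusted p under 0.05 (limma). All 14 core genes had a log2 difference above 0, between 0.075 and 0.20, with a core median of 0.16, and 10 of 17 cap genes did, with a cap median of 0.059. Over all genes tested the median was 0.010 and 8709 of 16312 were above 0. In the pairs the core medians were 0.25, -0.022 and 0.23 in numbers 1, 2 and 3, with 14, 6 and 14 of 14 genes higher in TG. Psma3, a subunit of the alpha ring, had the largest difference (0.20 ± 0.17), with 3625, 3888 and 2895 normalized counts in WT and 4150, 4305 and 3495 in TG, which overlap by numbers 1 and 2 of WT and number 3 of TG. Psma3 shares 19.5% of its 31-base sequences, most of them with the processed pseudogene Gm13835. The mean of Gm13835 was 457 in WT polysome and 324 in TG polysome libraries. How reads were divided between these genes was not tested, so the Psma3 difference is uncertain. Psmd7 had the lowest (-0.11 ± 0.17), with 1218, 1235 and 1084 in WT and 1174, 1231 and 895 in TG. No gene's groups were free of overlap in input or on polyribosomes, where 1.37% of all genes lay higher in TG without overlap on polyribosomes and 1.23% in input, and 0.999% and 1.39% lay lower. With the replicate block 0.00613% of all genes passed as higher on polyribosomes, none of them a proteasome gene. Without number 3 of WT polysome the median of the 31 genes turned to -0.087 from 0.10.

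**Figure D4:**
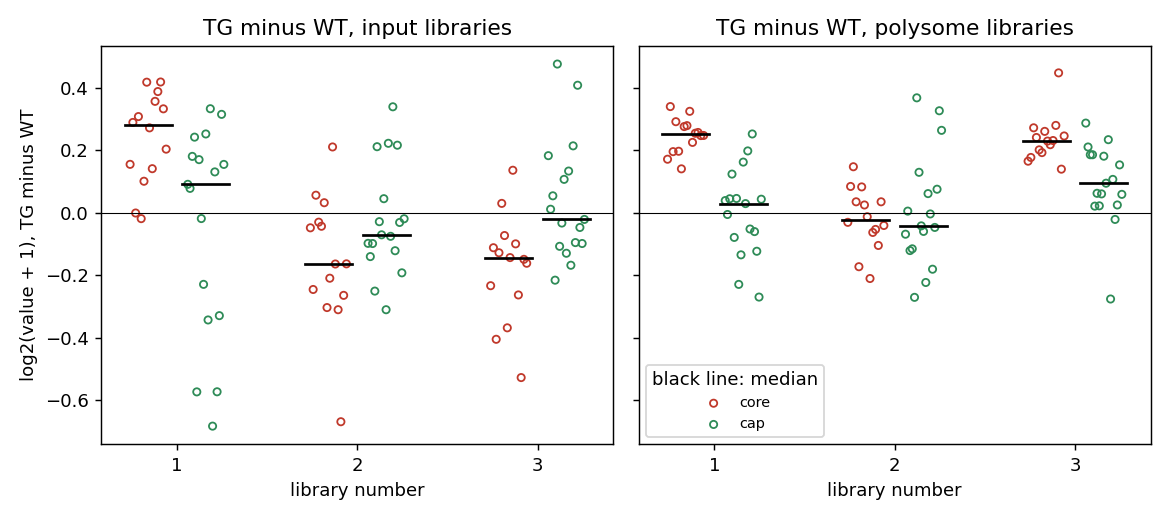
TG minus WT on the log2(value + 1) scale for the 31 genes in each numbered pair (x axis), in input (left) and polysome libraries (right), with core genes in red, cap genes in green and the median as a black line. Core medians were 0.28, -0.16 and -0.15 in input and 0.25, -0.022 and 0.23 in polysome libraries.

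Last, the size of the TG-to-WT difference on polyribosomes was set against that in input (an interaction term). None of the 31 genes passed, where 0% of 16962 genes did, and none had an unadjusted p under 0.05 (limma). Differences of log2 differences ranged from -0.15 ± 0.45 (Psmc5) to 0.46 ± 0.43 (Psmb5), with a median of 0.12 beside 0.016 over all genes. The core median was 0.18 and the cap median 0.062. This comparison uses all libraries of the others, so it is not a separate observation. Psmc5, an ATPase of the cap, had 3334, 1675 and 1158 normalized counts in WT input and 2239, 1940 and 1610 in TG input libraries. On polyribosomes it had 3019, 3240 and 2069 in WT and 2857, 2685 and 2099 in TG. Number 1 of WT input stood far above the rest of its group, and without number 3 of WT input the Psmc5 difference turned to 0.20. Among the other pathway genes none passed in a genotype comparison or the interaction, the smallest p belonging to Psme2 in input (0.26 ± 0.21), Psmb8 on polyribosomes (0.51 ± 0.33) and Psma8 in the interaction (0.93 ± 0.76).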

How the data were processed

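RNA of striatal synaptosomes and of their polyribosomes was sequenced from stranded total RNA libraries, per the labels' protocols. Per gene, the authors deposited a signal value, an estimated count they had normalized. The submitters' processing notes name Salmon 1.1.0, DESeq2 1.26.0, R 3.6.2 and the build GRCm38, while annotation and model are not stated there. The values are not whole. Depths were estimated from the spacing of low values, taken as 1 read. Whole reads were not recovered, since 30.5% to 46.1% of low values, by library, came within 0.1 of one. Of the identifiers, 21465 of 21492 matched GENCODE M21, which gave symbols, coordinates (GRCm38), lengths and the share of 31-base sequences in other genes' transcripts.

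Each comparison was fitted on log2(value + 1) with limma 3.58.1 in R 4.3.3, with a variance trend. Genes with at least 3 fitted libraries at 10 or more were tested, with Benjamini-Hochberg adjustment over all of them and a threshold of 0.05. Fold changes on this scale understate those of low genes. Genotype was fitted on the 6 libraries of a fraction, and the other comparisons on all 12. These main fits were unpaired, with no term for the library number. The fits were also run on simulated data, with outcomes not reported here. Those simulated libraries were drawn independently, without the shared deviation of same-numbered libraries described next.

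Same-numbered libraries deviated together from their group means (correlations 0.24 to 0.55 in 18 pairs, and -0.41 to -0.00090 for other numbers). For the pair differences and the replicate block, the numbers were therefore taken to pair the libraries. The pairing comes from these values and the shared numbers, as no label explains the numbers. The block, used only as an alternative to the main fits, was the number within a fraction for genotype, and the number within each genotype otherwise.

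The members and lists were chosen with earlier results of these data known. Values in every library are given for genes called in any comparison, for the largest rise and fall in each comparison and for the catalytic genes. Of other pathway genes, those called are named, or the smallest p where none was, except that some are counted but not reported by name here. Psmd11, Psmd13 and Psmc3 were singled out after their values were seen. Alternatives were TMM scaling (computed from the deposited values), filters, pseudocounts, no variance trend, other libraries in the fit, the block, length trends and leaving out libraries.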

Additional observations from a re-analysis of the deposited data

How the results depend on the processing

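For polysome against input, 7 proteasome genes passed in WT and 10 in TG, where 2367 and 3062 of all genes did. TMM scaling, other filters, pseudocounts, no variance trend and the fit on other libraries kept both counts within 1.5 times. The replicate block gave 12 in WT and 14 in TG, where 5052 and 5638 of all genes passed. With the coding length trend removed 0 passed in WT and 3 in TG, where 858 and 1352 of all genes did. The median of the 31 genes was then 0.18 in each genotype. The exonic length trend, when removed, left medians of 0.088 in WT and 0.13 in TG. Without all libraries of number 1, 2 and 3 WT had 0, 0 and 0 proteasome genes called and TG 5, 0 and 1. In that order 61, 16 and 60 of all genes passed as higher in WT, and 153, 124 and 286 as lower. In TG it was 204, 45 and 114 as higher, and 258, 287 and 370 as lower. With the block as well, WT had 11, 0 and 14 proteasome genes and TG 9, 4 and 16. Of all genes, 2841, 375 and 3669 then passed in WT, and 3490, 1321 and 4159 in TG. The fits that left out a library number were chosen after the data were examined, and they fit fewer samples. Leaving out single libraries gave 0 to 9 proteasome genes in WT and 6 to 11 in TG, where 648 to 2566 and 1205 to 3263 of all genes passed. The medians of the 31 genes were then 0.18 to 0.45 in WT and 0.26 to 0.46 in TG. The median ranged from -0.12 to 0.092 for genotype in input, from -0.087 to 0.22 for genotype on polyribosomes and from -0.044 to 0.22 for the interaction. Psmb5 in input ranged from -0.67 to 0.041, Psmd7 on polyribosomes from -0.20 to 0.031, and Psmc5 in the interaction from -0.57 to 0.20. Psmc5 also turned to 0.020 without number 2 and 0.0061 without number 3, with or without the block, and the cause was not tested. No proteasome gene passed for genotype or the interaction under any alternative run. Fitting the interaction on other libraries was not run, since it needs all 12. Each group has 3 libraries, and whether depth or the spread between libraries limits these results more was not tested.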
